A study of Bos taurus with 20 samples.

Results

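The ZNF genes are the numbered zinc finger genes, named ZNF plus a number, and most of them encode proteins with C2H2 zinc fingers. Members were chosen by measured values: they are the protein-coding ZNF genes of the deposited table with at least 10 reads, recovered from the deposited levels, in at least 2 of the 20 libraries. This rule kept 151 of the 242 protein-coding ZNF genes listed, among 10599 genes of 15542 that passed the same filter. All samples were bovine and came from embryos at day 14, the stage at which the embryo elongates in the uterus. There were 6 whole embryos that had not been vitrified (fresh embryos), 5 samples of isolated trophectoderm (TE) from fresh embryos, 2 whole embryos that had been vitrified, and 7 samples of TE from vitrified embryos. Vitrification is cryopreservation by cooling so fast that the sample turns to glass, and TE is the outer epithelium that gives rise to the placenta. The labels name no breed, batch or extraction, and do not say how samples relate to each other. A p-value therefore speaks of variation between these libraries, which may be partly technical.

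A C2H2 zinc finger is a short fold held by a zinc ion, and an array of fingers reads a stretch of DNA or, in some proteins, RNA. Many ZNF proteins carry a KRAB domain, which recruits the corepressor TRIM28 and histone methyltransferases, and these proteins silence transposable elements in early embryos. Others carry a SCAN domain, through which they pair with each other, and some have neither domain and work in splicing, ribosome assembly, mitosis or chromatin complexes. KRAB genes lie in clusters that grew by tandem duplication.

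Levels are in RPKM, that is reads per kilobase of the gene's genomic span, introns included, and per 1000000 reads of the library. A level set between genes is therefore per length of the whole gene and not per length of its transcript. Positions are those of the deposited table, on UMD3.1. Fold changes are differences on the log2(RPKM + 1) scale from limma, given with their standard error (SE), and this scale understates the change of genes below 1 RPKM, where most members lie. Adjusted p-values are Benjamini-Hochberg values over all 10599 genes with a threshold of 0.05. In bulk samples, fewer cells of a type and less RNA per cell cannot be told apart.

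The libraries held 6.01 to 14.53 M reads (M stands for 1000000), of which 2.03 to 8.73 M fell in listed genes. In the 5 fresh TE libraries the listed genes took 33.8 to 40.3% of the reads, against 57.5 to 63.9% in the other 15. Messenger RNA of mitochondrial genes took 1.09 to 1.41% of listed reads in fresh TE and 3.01 to 9.87% elsewhere. Fresh TE 1 and 2, and fresh TE 3 and 4, were nearly identical in their reads, with a chi-square of 1.80 and 1.45 per degree of freedom, whereas other pairs of fresh TE gave 10.5 to 19.7. All 10 trophectoderm markers had reads in every library, with a summed level of 2254 to 2873 RPKM in fresh TE and 1392 to 2941 RPKM in the others. The 6 epiblast markers, of the cells that form the body, summed to 0 to 0.474 RPKM in fresh TE, with LIN28B at 0 reads in every fresh TE library, to 13.2 to 41.8 RPKM in vitrified TE, to 7.46 to 64.2 RPKM in fresh embryos and to 75.1 and 99.2 RPKM in vitrified embryos. Vitrified embryo 1 had 0 reads of NANOG, 12 of POU5F1 and 1 of SOX2, where vitrified embryo 2 had 195, 830 and 39, so 1 of the 2 vitrified whole embryos was nearly without 3 of the epiblast's defining markers. ZFP42 alone made up 74.7 of the 75.1 RPKM in vitrified embryo 1 and 71.4 of the 99.2 RPKM in vitrified embryo 2. The epiblast sum of vitrified TE is not split by marker here. The 5 hypoblast markers found summed to 153 to 325 RPKM in fresh TE and 203 to 1258 RPKM in the other groups, the 3 blood and immune markers to 9.48 to 15.5 against 2.99 to 6.44 RPKM, and the 3 endometrial markers to 1.27 to 3.08 against 2.14 to 7.25 RPKM. The share of listed genes, the mitochondrial share and the epiblast and blood markers each separated fresh TE from the other 15 libraries without overlap, and what set these 5 libraries apart cannot be told apart from the fresh TE state.

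Members were mostly rare transcripts. Reads per member over all libraries ran from 50 to 23268 with a median of 382, and 35 members had at least 10 reads in all 20 libraries. ZNF593, ZNF706, ZNF106, ZNF638 and ZNF326 together took 42.2% of the 176145 member reads. Fresh TE gave 61 to 72 members with at least 10 reads in a library, fresh embryos 81 to 124, vitrified TE 107 to 123 and the 2 vitrified embryos 117 and 132. In fresh TE 64 members stayed under 10 reads in every library, against 19 in fresh embryos and 11 each in vitrified embryos and vitrified TE. Over all listed genes, 6497 to 7207 had at least 10 reads in a fresh TE library, against 8003 to 9803 in the others. Depth was lowest there too, at 2.03 to 3.09 M listed-gene reads against 3.51 to 8.73 M in the others. The filter was passed through 1 group alone by 7 members, 3 through fresh embryos, 3 through vitrified TE and 1 through fresh TE. Others, ZNF18, ZNF296 and ZNF608 among them, passed through libraries of both vitrified groups and 0 fresh libraries. At the edge of the filter, ZNF618, ZNF500 and ZNF175 had 10 reads in their second-best library, and ZNF770, ZNF774 and ZNF821, which were left out, had 9.

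As a share of listed-gene reads, ZNF members were lowest in fresh TE. They took 1241 to 1310 reads per 1000000 listed-gene reads in fresh TE, 1516 to 1906 in fresh embryos, 1818 to 2122 in vitrified TE, and 2188 and 2351 in the 2 vitrified embryos. No fresh TE library reached the lowest library of another group. Much of this gap lay in the 5 members with the most reads, which took 26.5 to 30.03% of member reads in fresh TE and 35.5 to 50.2% in the other groups. Without these 5, fresh TE at 890 to 931 reads per 1000000 listed-gene reads lay within the range of fresh embryos, at 877 to 1093, and below vitrified TE, at 1059 to 1210, and vitrified embryos, at 1217 and 1466. Both shares depend on how members were chosen. Of the 151 members, 64 stayed under 10 reads in every fresh TE library and so entered through other groups. This favoured a lower share in fresh TE. The 5 were picked by reads over all 20 libraries, most of them not fresh TE.

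**Figure D1:**
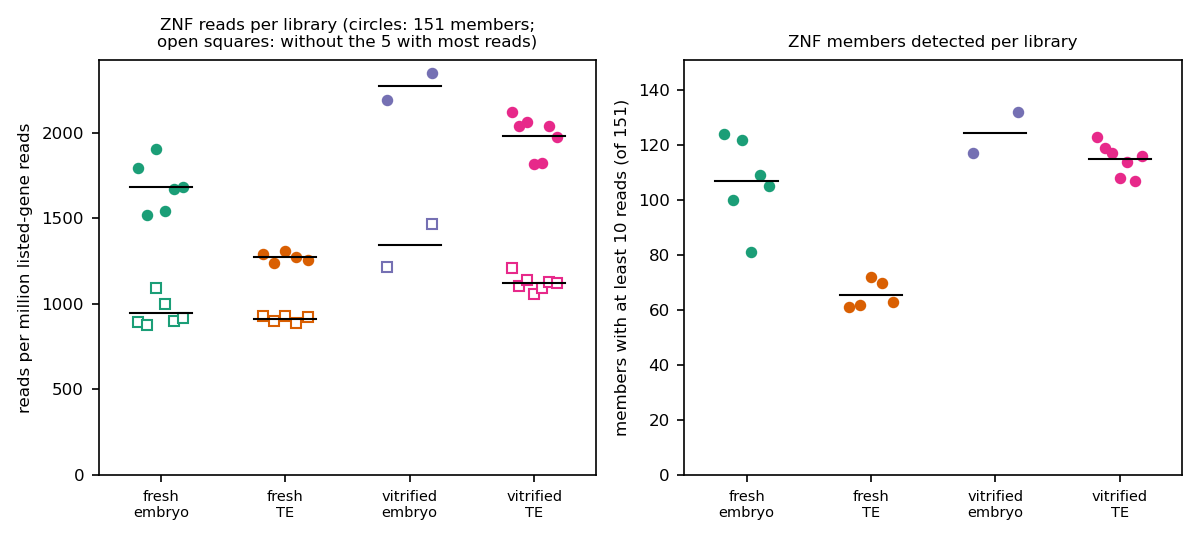
Left, ZNF reads per 1000000 listed-gene reads in each of the 20 libraries by group, for the members together (circles) and without the 5 with the most reads (open squares); right, the number of members with at least 10 reads in each library, with lines at group means. Fresh TE sits lowest for the members together, at 1241 to 1310, and in members detected, at 61 to 72, but overlaps with fresh embryos at 890 to 931 once these 5 are left out. The fresh TE libraries were also the shallowest, at 2.03 to 3.09 M listed-gene reads, and held the fewest genes with at least 10 reads, at 6497 to 7207.

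Member by member, the group with the highest mean RPKM was vitrified embryos for 86 members, vitrified TE for 35, fresh embryos for 20 and fresh TE for 10, where these groups were highest for 49.2, 25.1, 17.98 and 7.68% of all genes tested. Per listed-gene read the numbers of members were 73, 33, 16 and 29. At the deposited levels, fresh TE had the lowest mean for 106 of 151 members and for 78.1% of all genes tested. Per listed-gene read it was lowest for 73 members. Shares of all genes were not computed on that scale, so its counts have no background beside them.

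In vitrified against fresh TE, 86 of 151 members were higher and 3 were lower, where 75.6% of all genes passed, 69% higher and 6.66% lower. The members' median log2 fold change was 0.08, against 0.18 over all genes tested. Members' median level was 0.0678 to 0.0761 RPKM in fresh TE libraries, against 0.170 to 0.192 RPKM over all genes tested. Since the scale understates changes at low levels, the 2 medians are not alike in meaning. The share of higher calls, 57.0% against 69%, was likewise set between genes of unlike level, and counts by depth are given below. How many members counted as higher depended on the scaling. The split was 60 higher and 20 lower per listed-gene read, 47 and 43 with median-ratio scaling, and 32 and 66 with quantile normalization. All genes moved likewise, to 49.2% higher and 15.7% lower, 35.1 and 27.5%, and 26.2 and 38.7%, and their median went from 0.18 to 0.06, 0.01 and -0.01. Under all 4 scalings 31 members stayed higher and 3 stayed lower, against 25.4% and 6.66% of all genes. Every vitrified TE sample lay above every fresh TE sample for 62 members and below for 2, against 54.6% and 3.96% of all genes. The genes named next were taken by size of change or by the scalings they passed. The summed epiblast and hypoblast markers and the mitochondrial share were also higher in vitrified than in fresh TE. Their part in each result was not tested. In both vitrified embryos the epiblast sum lay mostly in ZFP42, and for vitrified TE it is not split by marker here.

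ZNF706, which encodes a small protein with a single zinc finger that promotes the exit of mouse stem cells from pluripotency, lies on chromosome 14 (65337750 to 65348432) and had the largest log2 fold change of the members in this comparison. It stood at 2.82, 2.49, 2.03, 1.92 and 2.08 RPKM in the fresh TE libraries, and from 9.68 through a median of 15.4 to 16.8 RPKM in vitrified TE. Fresh embryos ran from 7.09 through 12.5 to 14.6 RPKM, and the vitrified embryos gave 18.9 and 16.6 RPKM. Fresh TE thus lay far below the other 15 samples, none of which overlapped with it. The mean was 5.98-fold higher in vitrified than in fresh TE (log2 fold change 2.14, SE 0.17, adjusted p = 1.6e-09), or 3.82-fold higher per listed-gene read.

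ZNF296, a partner of KLF4 that is expressed in pluripotent cells, lies on chromosome 18 (53154421 to 53158138) and set the vitrified samples apart from the fresh ones. Fresh TE held 1, 1, 0, 0 and 0 reads of it, and fresh embryos stood between 0.024 and 0.208 RPKM with a median of 0.111. Vitrified TE ran from 1.75 through 2.02 to 3.80 RPKM, and the vitrified embryos stood at 0.766 and 2.46 RPKM. All 9 vitrified samples lay above all 11 fresh ones, whichever part of the embryo was taken. ZNF296 reached 10 reads in these 9 libraries and in 0 fresh ones. It thus passed the read filter through vitrified samples alone, which favoured a higher level there. The log2 fold change was 1.71 (SE 0.15, adjusted p = 1e-08) in TE and 1.16 (SE 0.21, adjusted p = 0.00062) in whole embryos, where the ratio of means was 14.7. No ratio is given for TE, since fresh TE held 2 reads in all. The summed epiblast markers ran from 7.46 to 64.2 RPKM in fresh embryos and from 13.2 to 41.8 RPKM in vitrified TE, and their part in the result was not tested. Such a sum can be carried almost wholly by ZFP42, as in vitrified embryo 1.

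ZNF574 and ZNF518A were also higher in every vitrified sample than in every fresh one. ZNF574 (chromosome 18, 51504690 to 51507156) stood at 0.0657, 0.0675, 0.207, 0 and 0.242 RPKM in fresh TE, at 0.2 to 0.8 RPKM with a median of 0.553 in fresh embryos, at 1.30 and 4.44 RPKM in vitrified embryos and at 1.70 to 3.88 RPKM with a median of 2.23 in vitrified TE. Its log2 fold changes were 1.61 (SE 0.17, adjusted p = 8.8e-08) in TE and 1.23 (SE 0.24, adjusted p = 0.00088) in whole embryos. ZNF518A, a chromatin-associated zinc finger protein encoded on chromosome 26 (17367945 to 17372394), stood at 0.182, 0.150, 0.458, 0.309 and 0.504 RPKM in fresh TE and at 2.19 to 3.69 RPKM with a median of 2.86 in vitrified TE, a 9.04-fold difference of means (log2 fold change 1.56, SE 0.14, adjusted p = 8.3e-09). Fresh embryos reached 0.468 to 1.85 RPKM and vitrified embryos 3.28 and 2.43 RPKM (log2 fold change 0.92, SE 0.19, adjusted p = 0.0016), so for ZNF518A too the vitrified samples stood above all fresh ones.

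ZNF414 and ZNF513 showed how whole embryos could differ from TE. ZNF414 (chromosome 7, 18343922 to 18347589) rose in both kinds of sample. Its levels were 0.309, 0.182, 0.347, 0.300 and 0.285 RPKM in fresh TE, 1.45 to 2.52 RPKM (median 1.78) in vitrified TE, 0.224 to 1.03 RPKM (median 0.541) in fresh embryos, and 1.88 and 3.20 RPKM in vitrified embryos. The log2 fold changes were 1.18 (SE 0.12, adjusted p = 6.6e-08) in TE and 1.15 (SE 0.17, adjusted p = 0.00011) in whole embryos. ZNF513, a retinal transcription factor in humans, lies on chromosome 11 (72273637 to 72277104) and rose in TE, from 0.560, 0.576, 0.367, 0.238 and 0.474 RPKM in fresh TE to 1.69 to 3.27 RPKM (median 2.95) in vitrified TE. In whole embryos it stood at 0.85 to 1.67 RPKM (median 1.25) when fresh and at 1.51 and 1.64 RPKM when vitrified. Its log2 fold change was 1.35 in TE (SE 0.11, adjusted p = 4.3e-09) and 0.23 in whole embryos (SE 0.16, adjusted p = 0.29), and the difference of the 2 effects was -1.13 (SE 0.19, adjusted p = 0.00029).

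ZNF76 and ZNF777 had almost no reads in fresh TE. ZNF76, a relative of the promoter-binding factor ZNF143, is encoded on chromosome 23 (9196406 to 9235678) and had 1, 0, 0, 0 and 1 reads in fresh TE, against 18 to 33 reads in each vitrified TE library (0.0593 to 0.0915 RPKM, median 0.0673). It stood at 0.00837 to 0.028 RPKM in fresh embryos and at 0.0332 and 0.0569 RPKM in vitrified embryos. Vitrified TE was above the other 3 groups without overlap, with a log2 fold change of 0.0993 over fresh TE (SE 0.0081, adjusted p = 3.1e-09) that is small only because the level is far below 1 RPKM. ZNF777, on chromosome 4 (113238978 to 113261532), had 2, 0, 2, 0 and 0 reads in fresh TE and 0 to 12 in the fresh embryos. In vitrified TE it had 17 to 105 reads (0.0975 to 0.507 RPKM, median 0.348), and in vitrified embryos 24 and 42 (0.126 and 0.208 RPKM). The vitrified samples lay above all fresh ones, with log2 fold changes of 0.40 in TE (SE 0.05, adjusted p = 7.8e-07) and 0.19 in whole embryos (SE 0.07, adjusted p = 0.04), of which the second was lost under another scaling (adjusted p up to 0.14).

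ZNF521 was the member that fell most clearly. It encodes a multi-finger cofactor of blood, neural and fat progenitors, and spans 374 kb of chromosome 24 (31675533 to 32049401). Fresh TE gave 86, 75, 120, 117 and 95 reads, or 0.0372, 0.0334, 0.0409, 0.043 and 0.038 RPKM, and vitrified TE 0.0015 to 0.00672 RPKM (median 0.005). Fresh embryos stood at 0.00157 to 0.00515 RPKM and vitrified embryos at 0.00159 and 0.014 RPKM. Fresh TE lay above all 15 other samples, although these libraries were the shallowest in listed genes. The mean fell 8.46-fold from fresh to vitrified TE (log2 fold change -0.0479, SE 0.0036, adjusted p = 8.6e-10), and was 11.2-fold lower in fresh embryos than in fresh TE (adjusted p = 2.5e-09), with the same direction and call under the 4 scalings.

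ZNF469 and ZNF283, both on chromosome 18, were the other members lower in vitrified TE. ZNF469, which is linked to collagen and the cornea in humans (13740622 to 13753850), had 5, 10, 22, 16 and 6 reads in fresh TE, 0 to 3 in fresh embryos, 0 and 0 in vitrified embryos and 0 or 1 in vitrified TE. Its log2 fold change was -0.17 between vitrified and fresh TE (SE 0.02, adjusted p = 2.5e-06) and -0.15 between fresh embryos and fresh TE (adjusted p = 1.4e-05), with no overlap of samples in either. ZNF469 is the 1 member that passed the read filter through fresh TE alone, and so had to be higher there. ZNF283 (52380158 to 52391524), of the KRAB type in humans, fell less: from 0.199, 0.220, 0.168, 0.254 and 0.210 RPKM in fresh TE to 0.0569 to 0.203 RPKM (median 0.0663) in vitrified TE, with overlapping samples (log2 fold change -0.12, SE 0.04, adjusted p = 0.0077).

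**Figure D2:**
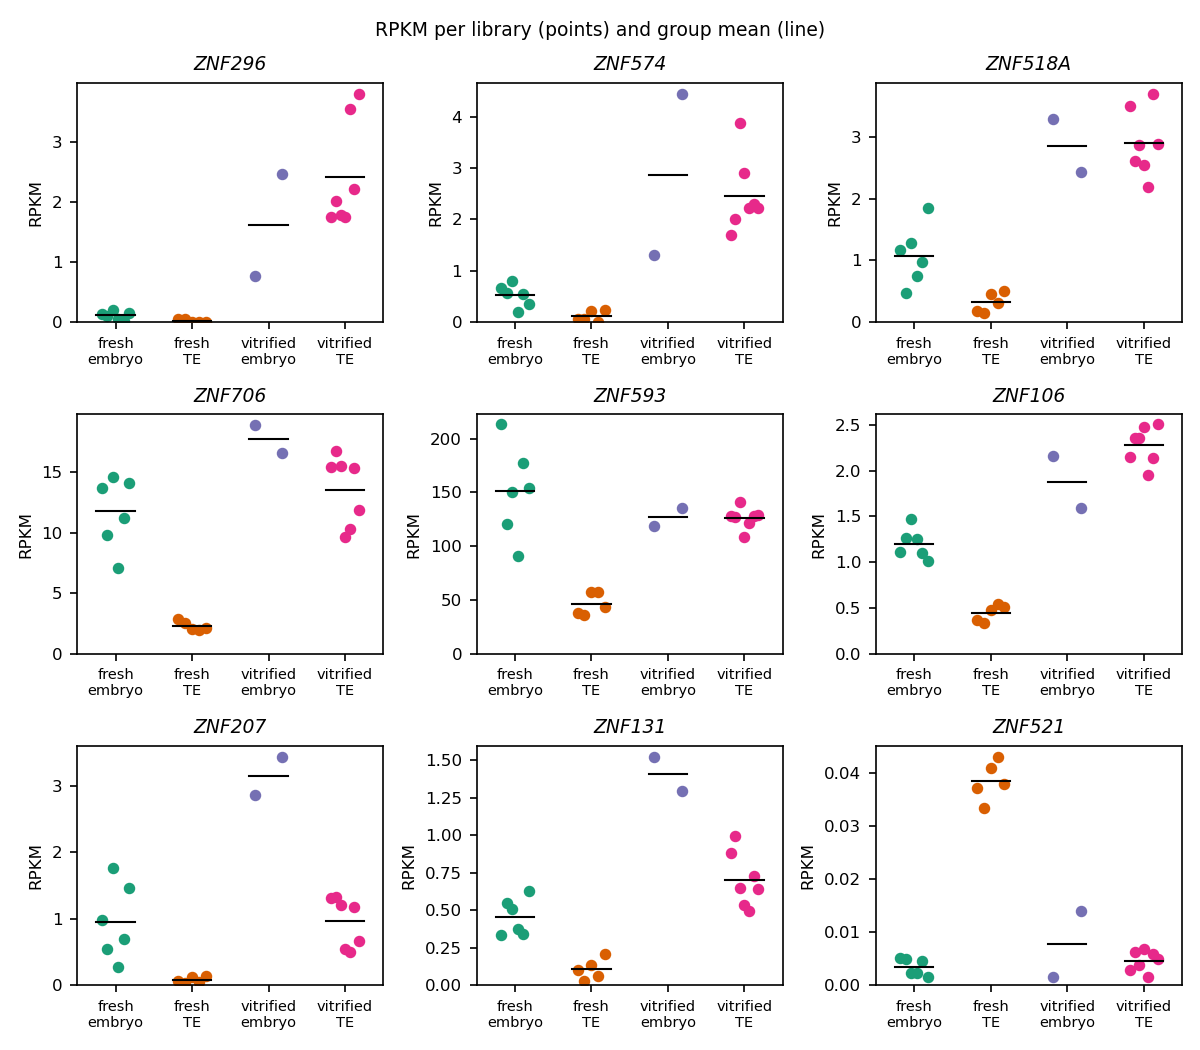
RPKM of 9 ZNF members in each library (points) with group means (lines), on linear axes that start at 0. ZNF296 is at or under 0.208 RPKM in the 11 fresh samples and at or above 0.766 RPKM in the 9 vitrified ones, ZNF706 is lowest in fresh TE, and ZNF521 is highest there.

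The members with known roles in RNA handling included 4 of the 5 with the most reads in the family. Of the 10 tested, 8 were higher in vitrified than in fresh TE and 0 lower, where 69% of all genes were higher and 6.66% lower, a background that holds for the lists that follow. The split was 4 and 3 with median-ratio scaling and 5 and 4 with quantile normalization. ZNF593, which acts in assembly of the large ribosomal subunit, is encoded on chromosome 2 (127523710 to 127524791) and stood highest of the members per kilobase of gene. It gave 37.4, 35.9, 57.3, 57.5 and 43.6 RPKM in fresh TE, 108 to 141 RPKM (median 128) in vitrified TE, 90.9 to 214 RPKM (median 152) in fresh embryos, and 119 and 136 RPKM in vitrified embryos. Fresh TE lay below all others without overlap, and the remaining 3 groups overlapped. The log2 fold change in TE was 1.45 (SE 0.17, adjusted p = 4.1e-07), and the call was lost with median-ratio scaling (0.35, adjusted p = 0.063). ZNF106, an RNA-binding protein gene on chromosome 10 (37890185 to 37941981), went from 0.369, 0.338, 0.479, 0.544 and 0.508 RPKM in fresh TE to 1.95 to 2.504 RPKM (median 2.36) in vitrified TE, a 5.08-fold difference of means (log2 fold change 1.18, SE 0.07, adjusted p = 5e-11). Fresh embryos, at 1.01 to 1.47 RPKM, lay between these groups without overlapping with either.

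ZNF326, a subunit of the complex that couples RNA polymerase II to splicing (chromosome 3, 53385189 to 53419461), stood at 0.260, 0.194, 0.346, 0.325 and 0.331 RPKM in fresh TE and at 1.10 to 1.71 RPKM (median 1.30) in vitrified TE (log2 fold change 0.89, SE 0.10, adjusted p = 2.2e-07), again without overlap. ZNF598, the ubiquitin ligase that senses collided ribosomes (chromosome 25, 1552258 to 1562561), had 0, 1, 2, 0 and 1 reads in fresh TE and 19 to 37 reads in vitrified TE (log2 fold change 0.38, SE 0.04, adjusted p = 1.7e-07). For ZNF638 and ZNF622 the direction itself depended on the scaling. ZNF638, an RNA-binding splicing cofactor (chromosome 11, 13155560 to 13235445), stood at 0.418, 0.323, 0.379, 0.401 and 0.335 RPKM in fresh TE and at 0.635 to 0.875 RPKM in vitrified TE (log2 fold change 0.33, adjusted p = 3.1e-06), but at -0.15 with quantile normalization (adjusted p = 0.0095). ZNF622, a ribosome assembly factor (chromosome 20, 56767512 to 56781230), with a mean of 1.87 ± 0.438 RPKM in fresh TE (SD, n = 5) and 2.35 ± 0.143 RPKM in vitrified TE (n = 7), gave 0.24 (adjusted p = 0.034) as deposited and -0.54 with median-ratio scaling (adjusted p = 5.8e-05), and its call was lost without fresh TE 1 (adjusted p = 0.108), fresh TE 2 (0.121), vitrified TE 5 (0.0589) or vitrified TE 6 (0.0565). The call was also lost with the near-identical fresh TE libraries averaged (0.23, adjusted p = 0.0728).

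Of the 4 tested members with roles in mitosis and DNA repair, 2 were higher in vitrified TE and 0 lower, and 1 and 2 with median-ratio scaling and with quantile normalization. ZNF207, which carries BUB3 to the kinetochores (chromosome 19, 18123761 to 18138173), had only 6, 3, 13, 4 and 13 reads in fresh TE (0.0347 to 0.135 RPKM). It stood at 0.498 to 1.33 RPKM (median 1.18) in vitrified TE, at 0.274 to 1.77 RPKM (median 0.842) in fresh embryos, and at 2.86 and 3.43 RPKM in vitrified embryos, which lay above the other 3 groups. Its log2 fold change was 0.84 in TE (SE 0.16, adjusted p = 0.00014) and 1.13 in whole embryos (SE 0.23, adjusted p = 0.0012). ZNF280B (chromosome 17, 73002288 to 73010752) rose in TE by 0.48 (SE 0.12, adjusted p = 0.0014), and this was lost with median-ratio scaling (adjusted p = 0.185). ZNF830, of DNA repair and splicing (chromosome 19, 15446157 to 15447897), did not pass, at 6.44 ± 1.56 RPKM in fresh and 5.58 ± 0.735 RPKM in vitrified TE (adjusted p = 0.28), but was lower per listed-gene read (log2 fold change -0.71, adjusted p = 6.1e-05). ZNF668, of the DNA damage response (chromosome 25, 27431639 to 27440675), did not pass either, at 0.231 ± 0.0627 and 0.300 ± 0.102 RPKM (adjusted p = 0.23), and was lower with median-ratio scaling (-0.18, adjusted p = 0.00757).

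Among members that are subunits or recruiters of chromatin complexes, 8 of 11 tested were higher in vitrified TE and 0 lower, a share near that of all genes, and 3 and 5 with quantile normalization. Beside ZNF518A, they included ZNF609, a partner of Integrator and cohesin loading whose gene spans 198 kb of chromosome 10 (45438772 to 45636955). ZNF609 had 2, 1, 13, 9 and 22 reads in fresh TE and 72 to 105 in vitrified TE, which is 0.0439 to 0.0613 RPKM against at most 0.0166 RPKM (log2 fold change 0.0646, SE 0.0056, adjusted p = 6.2e-09). Here fresh TE 1 and 2, the near-identical pair, were lowest. ZNF644, a partner of the H3K9 methyltransferases (chromosome 3, 52413191 to 52508200), rose by 0.05 (SE 0.01, adjusted p = 0.00094), and turned to -0.03 with quantile normalization (adjusted p = 0.0089). ZNF410, an activator of CHD4 (chromosome 10, 85669279 to 85711372), gave 0.414 ± 0.102 RPKM in fresh and 0.436 ± 0.0438 RPKM in vitrified TE (adjusted p = 0.74), and ZNF335, a component of a histone H3K4 methyltransferase complex (chromosome 13, 75416920 to 75435378), 0.368 ± 0.126 and 0.518 ± 0.177 RPKM (adjusted p = 0.096). ZNF335 passed as higher without vitrified TE 2 (adjusted p = 0.0488) or 6 (0.0493), but both genes were lower with median-ratio scaling, ZNF410 by -0.35 (adjusted p = 0.000184) and ZNF335 by -0.21 (adjusted p = 0.0287). CHD4 itself, the ATPase of the NuRD complex, was at 1.31 ± 0.272 RPKM in fresh and 3.96 ± 0.357 RPKM in vitrified TE (log2 fold change 1.11, SE 0.09, adjusted p = 3.8e-09).

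Of the 6 tested members of a list of sequence-specific factors, 5 were higher in vitrified TE and 0 lower, and 2 and 2 with quantile normalization. ZNF131, a BTB-type factor (chromosome 20, 31571710 to 31578259), went from 0.0989, 0.0254, 0.136, 0.063 and 0.205 RPKM in fresh TE to 0.497 to 0.992 RPKM (median 0.648) in vitrified TE (log2 fold change 0.62, SE 0.07, adjusted p = 3e-07). ZNF384 (chromosome 5, 104123599 to 104143237) rose by 0.31 (SE 0.04, adjusted p = 2.3e-06), ZNF24 (chromosome 24, 22025794 to 22088468) by 0.14 (SE 0.03, adjusted p = 0.0014) and ZNF148 (chromosome 1, 70287257 to 70382438) by 0.08 (SE 0.02, adjusted p = 0.00023), none of which passed under every scaling (ZNF148 was at -0.078 with quantile normalization, adjusted p = 0.00212). ZNF24 overlaps with the gene of ZNF397 and the counting rule is not given, so their reads may be shared. ZNF263, which carries SCAN and KRAB domains (chromosome 25, 2733865 to 2740471), stood at 0.611 to 0.853 RPKM in fresh TE and at 0.285 to 0.834 RPKM in vitrified TE (adjusted p = 0.16), and was lower per listed-gene read (log2 fold change -0.41, adjusted p = 0.00052).

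In the list of pluripotency and development 4 of 7 tested members were higher in vitrified TE and 1, ZNF521, was lower, and 1 was higher and 3 lower with quantile normalization. Beside ZNF296, ZNF322, which upholds pluripotency in mouse stem cells (chromosome 23, 31206277 to 31216021), rose from 0.199, 0.290, 0.431, 0.423 and 0.418 RPKM to 0.773 to 1.55 RPKM (median 1.22), with a log2 fold change of 0.69 (SE 0.09, adjusted p = 1.6e-06). It is 1 of 5 members whose reads were not whole numbers, and its call was lost with quantile normalization (adjusted p = 0.08). ZNF462 (chromosome 8, 98331864 to 98426788) and ZNF608 (chromosome 7, 30346723 to 30452440), both developmental regulators, did not pass. ZNF462 had 4 to 9 reads in fresh and 5 to 20 in vitrified TE (adjusted p = 0.22), and ZNF608 had 1 to 4 and 4 to 18 (adjusted p = 0.055), and ZNF608 passed as higher without vitrified TE 2 (adjusted p = 0.0368), 3 (0.0367) or 4 (0.0391). With quantile normalization both were lower, ZNF462 at -0.030 (adjusted p = 9.81e-05) and ZNF608 at -0.014 (adjusted p = 0.00531). ZNF608 entered through the read filter by vitrified samples alone, which favoured a higher level there.

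Fresh embryos against fresh TE compares 2 kinds of sample without vitrification, and shares the fresh TE libraries with the comparison above. Here 66 members were higher and 4 lower, where 66% of all genes passed, 60% higher and 5.97% lower, with a median of 0.04 for members and 0.14 for all genes. The split became 38 and 21 per listed-gene read, 29 and 39 with median-ratio scaling and 18 and 62 with quantile normalization. All genes moved likewise, to 38.8% higher and 15.8% lower, 29.9 and 25.2%, and 23.6 and 34.7%, and their median moved to 0.04, 0.01 and -0.01. Across the 4 scalings 18 members kept a higher call and 4 a lower one, against 23.3% and 5.96% of all genes. Every fresh embryo lay above every fresh TE sample for 49 members and below for 2, against 48.4% and 2.94%.

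The members highest in this comparison overlapped with those above. ZNF706 was 5.19-fold higher by means in fresh embryos (log2 fold change 1.94, SE 0.17, adjusted p = 2.2e-08), ZNF593 was 3.26-fold higher (1.66, SE 0.18, adjusted p = 2e-07) and ZNF207 was 12.2-fold higher (0.81, SE 0.17, adjusted p = 0.00036). ZNF326 was 3.81-fold higher (0.69, SE 0.10, adjusted p = 1.3e-05). These 4 kept the call under the 4 scalings. ZNF771 (chromosome 25, 26840152 to 26848527) stood at 0.135, 0.398, 0.228, 0.197 and 0.143 RPKM in fresh TE and at 0.353 to 1.499 RPKM (median 0.955) in fresh embryos, with the lowest embryo below the highest TE sample (log2 fold change 0.68, SE 0.13, adjusted p = 0.00012). ZNF511 (chromosome 26, 25938181 to 25941637) stood at 3.28, 4.38, 4.57, 3.86 and 4.45 RPKM in fresh TE and at 4.79 to 11.8 RPKM (median 7.63) in fresh embryos (0.75, SE 0.18, adjusted p = 0.0012), but at -0.16 with quantile normalization (adjusted p = 0.36). ZNF518A was higher by 0.63 (SE 0.14, adjusted p = 0.00073) and ZNF106 by 0.60 (SE 0.07, adjusted p = 7.7e-07), both lost with quantile normalization (adjusted p = 0.118 and 0.0664). ZNF296 did not pass (0.12, SE 0.16, adjusted p = 0.5), as fresh embryos held 1 to 9 reads of it.

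Vitrified against fresh whole embryos does not involve fresh TE, but rests on 2 vitrified embryos. Of the members, 42 were higher and 1 was lower, where 30.9% of all genes passed, 26.9% higher and 3.94% lower. The median was 0.07 for members and 0.06 for all genes. Per listed-gene read the split was 39 and 1, with median-ratio scaling 22 and 2, and with quantile normalization 17 and 2, where all genes gave 21.6% higher and 4.25% lower, 10.6 and 6.99%, and 8.68 and 6.14%. Under the 4 scalings 17 members stayed higher and 1 lower, against 7.88% and 3.11% of all genes. Without vitrified embryo 2 the count of higher members was 20. Both vitrified embryos lay above all 6 fresh ones for 48 members and below for 3, against 29.4% and 6.54% of all genes.

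The smallest p in whole embryos belonged to ZNF18, a SCAN and KRAB factor on chromosome 19 (31251615 to 31262942). ZNF18 reached 10 reads in 2 vitrified embryo and 2 vitrified TE libraries and in 0 fresh ones. It passed the read filter through vitrified samples alone, which favoured a higher level there. It had 11 and 18 reads in vitrified embryos and 0 to 7 in fresh ones, or 0.115 and 0.177 against 0 to 0.053 RPKM (median 0.0134), a 7.94-fold difference of means (log2 fold change 0.17, SE 0.02, adjusted p = 5.6e-05). ZNF131 stood at 1.52 and 1.30 RPKM against 0.336 to 0.629 RPKM (median 0.444), a 3.08-fold difference (0.73, SE 0.10, adjusted p = 6.9e-05). ZNF200 (chromosome 25, 2675126 to 2686355) stood at 0.771 and 0.815 RPKM against 0.143 to 0.359 RPKM (median 0.219), a 3.47-fold difference (0.55, SE 0.08, adjusted p = 0.00014). For these 3, as for ZNF414, both vitrified embryos were well above each fresh embryo and the call held with either vitrified embryo left out.

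ZNF174, a SCAN factor (chromosome 25, 2835245 to 2841857), lies near ZNF200 and ZNF263. It stood at 0.825 and 1.40 RPKM in vitrified and 0.195 to 0.490 RPKM (median 0.353) in fresh embryos, without overlap (log2 fold change 0.64, SE 0.10, adjusted p = 0.00021). ZNF215, which is imprinted in humans (chromosome 15, 46385477 to 46412895), stood at 0.524 and 1.20 against 0.176 to 0.335 RPKM (median 0.255), a 3.30-fold difference (0.54, SE 0.10, adjusted p = 0.00047). Its call was lost without vitrified embryo 2 (0.27, adjusted p = 0.0517). The lower member was ZNF502 (chromosome 22, 16514156 to 16523811), at 0.0614 and 0.116 RPKM against 0.150 to 0.240 RPKM (median 0.169), or 5 and 10 reads against 9 to 22 (log2 fold change -0.12, SE 0.04, adjusted p = 0.024). It lost the call without vitrified embryo 1 (adjusted p = 0.242) and without vitrified embryo 2 (adjusted p = 0.0534).

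**Figure D3:**
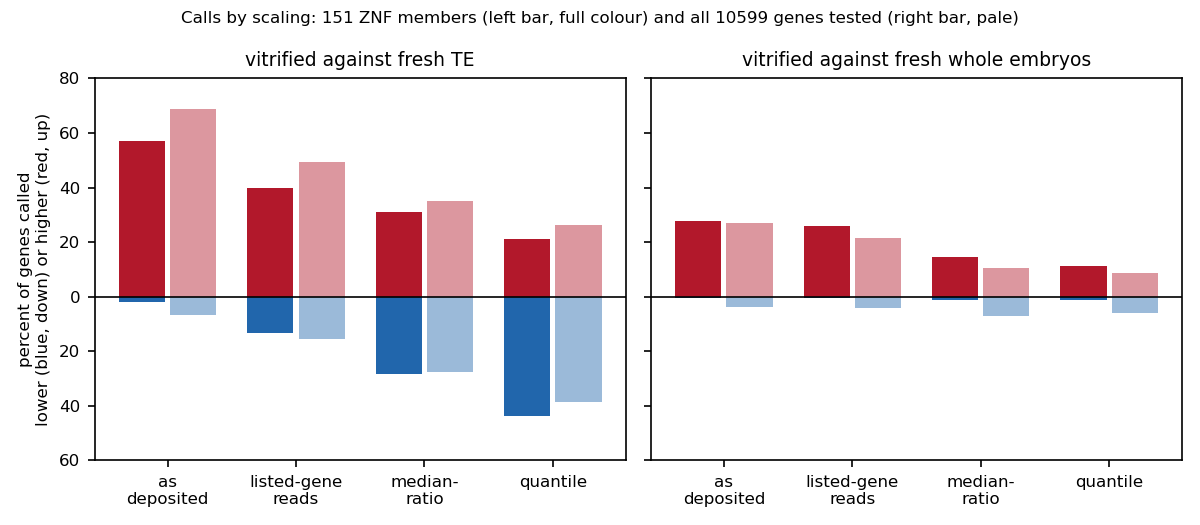
Percent of ZNF members (full colour) and of all genes tested (pale) called higher (red, up) or lower (blue, down) at an adjusted p under 0.05 in vitrified against fresh TE and in vitrified against fresh whole embryos, as deposited and under 3 other scalings. In TE the members' higher calls go from 86 to 32 and the lower calls from 3 to 66 across scalings, while vitrified against fresh embryos keeps at most 2 lower calls.

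Among vitrified samples, whole embryos against TE gave 24 members higher and 3 lower, where 18.9% of all genes passed, 15.3% higher and 3.59% lower. The split was 13 and 3 per listed-gene read, 5 and 2 with median-ratio scaling and 4 and 1 with quantile normalization, where all genes gave 9.27% higher and 3.44% lower, 3.08 and 2.52%, and 2.59 and 2.07%. Without vitrified embryo 2, the one with reads of NANOG, POU5F1 and SOX2, 3 members were higher. Both embryos lay above all 7 TE samples for 27 members and below for 3, against 20.4% and 5.94% of all genes. The 4 that stayed higher across the scalings, against 2.42% of all genes, were ZNF207, ZNF330, ZNF165 and ZNF570, and ZNF76 stayed lower, against 1.81%.

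ZNF570, of the KRAB type (chromosome 18, 47656764 to 47675771), stood at 0.193 and 0.552 RPKM in vitrified embryos, at 0.0553 to 0.116 RPKM (median 0.0881) in vitrified TE, at 0.067 to 0.176 RPKM in fresh embryos and at 0.0852, 0.0350, 0.121, 0.0795 and 0.0472 RPKM in fresh TE. Vitrified embryos thus lay above all 18 other samples, embryo 2 by far the most. The log2 fold change against vitrified TE was 0.33 (SE 0.06, adjusted p = 0.0024), and 0.14 without embryo 2 (adjusted p = 0.0941). ZNF165, a SCAN factor best known from testis (chromosome 23, 30332529 to 30343085), stood at 0.955 and 1.13 RPKM against 0.345 to 0.730 RPKM (0.46, SE 0.09, adjusted p = 0.0045). ZNF330, a nucleolar protein gene whose recovered reads were not all whole (chromosome 17, 16835048 to 16854200), stood at 1.31 and 0.855 RPKM against 0.164 to 0.678 RPKM (0.57, SE 0.12, adjusted p = 0.0054). ZNF165 lost the call without embryo 2 (adjusted p = 0.0945), ZNF330 without embryo 1 (adjusted p = 0.0705), and ZNF207 (1.10, SE 0.22, adjusted p = 0.0047) without embryo 2 (adjusted p = 0.0897).

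ZNF131 was higher in vitrified embryos than in vitrified TE by 0.50 (SE 0.10, adjusted p = 0.0041) and ZNF32 (chromosome 28, 46026267 to 46030708) by 0.45 (SE 0.10, adjusted p = 0.008). ZNF32 was lost without embryo 2 (adjusted p = 0.25), and with quantile normalization both missed the threshold (adjusted p = 0.0536 for ZNF131 and 0.0839 for ZNF32). The 3 lower members were ZNF513 (-0.51, SE 0.16, adjusted p = 0.029), ZNF76 (-0.0381, SE 0.011, adjusted p = 0.024) and ZNF217 (-0.16, SE 0.05, adjusted p = 0.029). ZNF217, a subunit of CoREST-type corepressor complexes (chromosome 13, 81854047 to 81863005), stood at 0.0795 and 0.112 RPKM in vitrified embryos and at 0.105 to 0.313 RPKM (median 0.213) in vitrified TE. ZNF217 passed the read filter through vitrified TE alone, and so had to be higher there. Each of these 3 lost the call when either embryo was left out, with adjusted p of 0.134 and 0.148 for ZNF513, 0.303 and 0.0544 for ZNF76, and 0.162 and 0.133 for ZNF217.

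The 2 largest groups that did not involve fresh TE were fresh embryos and vitrified TE, which differ in both kind and vitrification. Of the members, 13 were higher and 44 lower in fresh embryos, where 48.9% of all genes passed, 17.7% higher and 31.2% lower, with a median of -0.02 for members and -0.01 for all genes. The split was 10 and 45 per listed-gene read, 17 and 36 with median-ratio scaling and 23 and 32 with quantile normalization, where all genes gave 16.3% higher and 31.0% lower, 21.5 and 24.6%, and 22.6 and 21.4%. Across the 4 scalings 10 were higher and 32 lower, against 15.3% and 20% of all genes. Every fresh embryo lay below every vitrified TE sample for 19 members and above for 2, against 15.2% and 6.4%.

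Lower in fresh embryos were ZNF296 (log2 fold change -1.59, SE 0.15, adjusted p = 1.7e-07), ZNF609 (-0.0525, SE 0.0053, adjusted p = 4.5e-07), ZNF76 (-0.072, SE 0.0077, adjusted p = 8.1e-07), ZNF106 (-0.58, SE 0.07, adjusted p = 1.8e-06) and ZNF777 (-0.38, SE 0.05, adjusted p = 4.3e-06). ZNF142 (chromosome 2, 107322277 to 107338175), a gene of human neurodevelopment, belonged with them. It stood at 0.0207 to 0.121 RPKM (median 0.0701) in fresh embryos, at 0.102, 0.0628, 0.112, 0.0951 and 0.0658 RPKM in fresh TE, at 0.224 and 0.379 RPKM in vitrified embryos and at 0.305 to 0.492 RPKM (median 0.363) in vitrified TE. Fresh TE and fresh embryos overlapped, and both lay below the vitrified samples (-0.35, SE 0.03, adjusted p = 3.4e-07, for fresh embryos against vitrified TE). It rose with vitrification by 0.33 in TE (SE 0.04, adjusted p = 1.4e-07) and by 0.28 in whole embryos (SE 0.05, adjusted p = 0.00054). These 6 genes also had the same direction and call under the 4 scalings. ZNF296 passed the read filter through vitrified samples alone, which favoured this direction.

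Higher in fresh embryos than in vitrified TE were ZNF277, ZNF800, ZNF330, ZNF566, ZNF527 and ZNF304. ZNF800, which restrains endocrine genes in the gut (chromosome 4, 92424191 to 92444253), stood at 0.423 to 0.663 RPKM (median 0.497) in fresh embryos and at 0.170 to 0.425 RPKM (median 0.298) in vitrified TE, with the lowest embryo just under the highest TE sample (0.22, SE 0.04, adjusted p = 0.00041). ZNF277 (chromosome 4, 55994119 to 56128666) stood at 0.144 to 0.282 against 0.0616 to 0.146 RPKM (0.13, SE 0.02, adjusted p = 0.00028). ZNF330 stood at 0.681 to 1.10 against 0.164 to 0.678 RPKM, just without overlap (0.39, SE 0.08, adjusted p = 0.00082). ZNF566 (47237081 to 47266290), ZNF527 (47582089 to 47594486) and ZNF304 (64691262 to 64695902) are KRAB-type genes of chromosome 18. Their log2 fold changes were 0.10 (SE 0.02, adjusted p = 0.0009), 0.18 (SE 0.04, adjusted p = 0.0018) and 0.29 (SE 0.08, adjusted p = 0.0053), and only ZNF566 of these 3 separated the samples without overlap.

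Whether the vitrification effect differed between whole embryos and TE was tested as the difference of the 2 effects, whole embryo minus TE. It was above 0 for 8 members and below 0 for 16, where 32.3% of all genes passed, 3.98% above and 28.4% below. The split was 15 and 9 per listed-gene read, 24 and 10 with median-ratio scaling and 39 and 7 with quantile normalization. All genes turned with the scaling too, to 9.41% above and 15.7% below, 14.0 and 13.1%, and 19.5 and 11.3%. Under the 4 scalings 7 were above and 7 below, against 3.74% and 10.7% of all genes. Below 0 were ZNF593 (-1.65, SE 0.29, adjusted p = 0.00039), ZNF706 (-1.55, SE 0.29, adjusted p = 0.00049), ZNF513 and ZNF106 (-0.79, SE 0.12, adjusted p = 8.4e-05). ZNF593 and ZNF706 rose in TE and did not pass in whole embryos (-0.20, adjusted p = 0.56, and 0.59, adjusted p = 0.061), and ZNF106 rose less in embryos (0.38, SE 0.10, adjusted p = 0.006) than in TE. Above 0 were ZNF521 (0.0542, SE 0.0061, adjusted p = 4.9e-06) and ZNF469 (0.15, SE 0.04, adjusted p = 0.0064), which fell in TE and did not pass in whole embryos (adjusted p = 0.36 and 0.74; ZNF469 had to be higher in fresh TE by the filter), and ZNF570 (0.29, SE 0.07, adjusted p = 0.0052).

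ZNF789 (chromosome 25, 37408439 to 37419277) was also above 0 (0.29, SE 0.07, adjusted p = 0.0051). It stood at 0.285 and 0.299 RPKM in vitrified and 0.0127 to 0.139 RPKM in fresh embryos, but at 0.0747, 0.154, 0.200, 0.139 and 0.248 RPKM in fresh TE and 0.0803 to 0.280 RPKM (median 0.163) in vitrified TE. Its level thus moved between fresh and vitrified embryos (log2 fold change 0.29, adjusted p = 0.0014), with mean levels of 0.163 and 0.161 RPKM in fresh and vitrified TE (adjusted p = 0.94). ZNF174, ZNF283 and ZNF502 also passed (0.38, 0.20 and -0.24, adjusted p = 0.026, 0.026 and 0.00067). ZNF502 was lost with quantile normalization (adjusted p = 0.0567), ZNF174 without vitrified embryo 2 (adjusted p = 0.317) or with the near-identical fresh TE libraries averaged (adjusted p = 0.055), ZNF283 without vitrified embryo 1 (adjusted p = 0.18), and ZNF570 without embryo 2 (adjusted p = 0.125).

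**Figure D4:**
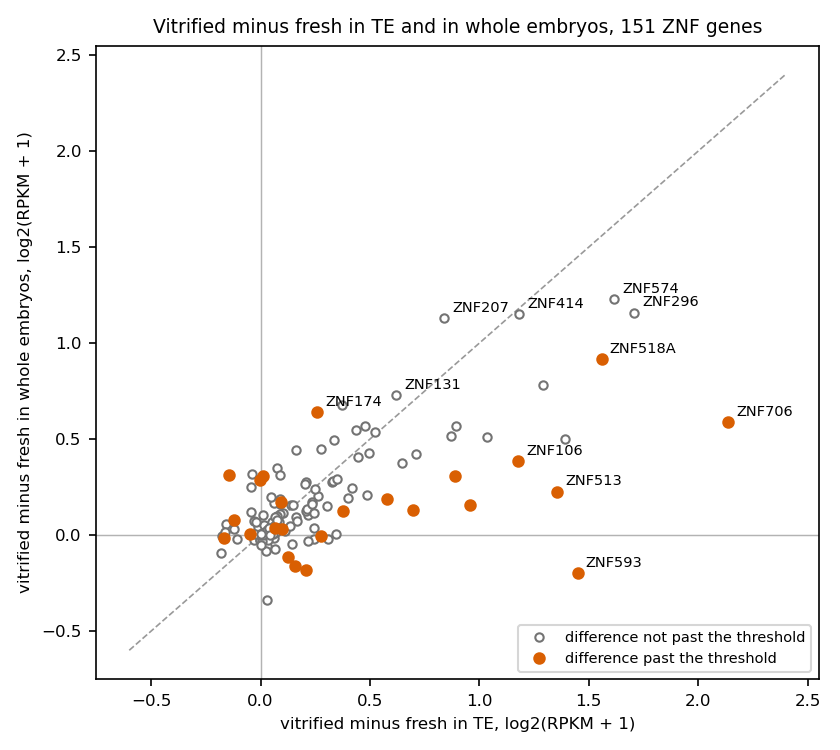
Log2 fold change (RPKM + 1 scale) of each ZNF member between vitrified and fresh TE (horizontal) and whole embryos (vertical), filled where the difference of the 2 effects passed; the dashed line marks equal effects. ZNF296, ZNF574, ZNF518A and ZNF414 are high on both axes, at 0.92 to 1.71, while ZNF593 and ZNF706 are high in TE, at 1.45 and 2.14, and lie lower in whole embryos, at -0.20 and 0.59.

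By position, 41 members lay on chromosome 18, 17 on chromosome 25, 14 on chromosome 7 and 7 on chromosome 23, with the rest on 22 other chromosomes. Members no more than 500 kb from the next formed 11 runs of 3 or more, which held 51 members, and the longest held 10, from ZNF565 to ZNF420 on chromosome 18. On chromosome 18, 19 of 41 members were higher and 2 lower in vitrified against fresh TE, with a median of 0.06, and on the other chromosomes 67 of 110 were higher and 1 lower, with a median of 0.09, where 69% of all genes were higher and 6.66% lower. With median-ratio scaling the splits were 11 and 15, and 36 and 28, and with quantile normalization 5 and 19, and 27 and 47. ZNF570, ZNF566 and ZNF527 stand close to each other on chromosome 18, and they differ in their order of groups. ZNF570 was highest in vitrified embryos, whereas ZNF566 gave 0.199 and 0.199 RPKM there against 0.146 to 0.267 RPKM in fresh embryos. Members of runs were tested each for itself, and 12 members overlap with another listed gene, among them ZNF276, ZNF280B, ZNF335, ZNF382 and ZNF575. KRAB genes of a cluster can be near-identical, and the way multiply mapping reads were counted is not given, so the values of clustered members are less certain.

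Calls were also counted by depth, taken as the reads of a gene over all libraries. Members with at least 500 reads over all libraries gave 49 higher and 1 lower of 67 in vitrified against fresh TE, and members under 500 reads 37 and 2 of 84. The same strata over all genes gave 5521 and 547 of 7431, and 1790 and 159 of 3168. With quantile normalization the members gave 19 and 27, and 13 and 39, and all genes 2245 and 2975, and 531 and 1125. Of the tested genes of related families, 16 of 23 ZBTB genes were higher and 0 lower, 5 and 1 of 10 ZFP genes, 3 and 0 of 9 ZSCAN and ZKSCAN genes, and 7 and 0 of 8 KLF genes. With quantile normalization these became 1 and 8, 2 and 5, 0 and 3, and 4 and 0.

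The partners through which ZNF proteins act were also measured. Of 22 tested genes for the KRAB corepressor and heterochromatin, 20 were higher and 0 lower in vitrified than in fresh TE, against 69% and 6.66% of all genes. The split was 14 and 1 per listed-gene read, 11 and 4 with median-ratio scaling and 9 and 7 with quantile normalization. In whole embryos 9 were higher and 1 lower, against 26.9% and 3.94% of all genes, and 5 and 1 with quantile normalization. TRIM28, the corepressor bound by the KRAB domain (chromosome 18, 65954144 to 65960264), stood at 6.51, 5.605, 8.49, 8.83 and 4.71 RPKM in fresh TE, at 24.5 to 39.9 RPKM (median 31.3) in vitrified TE, at 10.9 to 16.2 RPKM (median 12.7) in fresh embryos and at 25.5 and 23.9 RPKM in vitrified embryos. Its log2 fold change was 2.08 in TE (SE 0.15, adjusted p = 6.8e-10) and 0.85 in whole embryos (SE 0.21, adjusted p = 0.0052), without overlap in either. SUMO2, the modifier through which TRIM28 recruits its partners, went from 7.94 ± 1.39 RPKM in fresh TE (SD, n = 5) to 28.4 ± 3.28 RPKM in vitrified TE (n = 7; log2 fold change 1.72, SE 0.12, adjusted p = 5.2e-10), with 31.9 RPKM in fresh and 35.2 RPKM in vitrified embryos (adjusted p = 0.55). Of 16 tested NuRD and CoREST genes, 15 were higher and 0 lower in vitrified TE, and 8 and 0 in vitrified embryos. With median-ratio scaling these were 8 and 3, and 2 and 1, and with quantile normalization 4 and 4, and 1 and 1. RBBP7, a histone-binding subunit, was higher by 0.27 in TE (SE 0.10, adjusted p = 0.018), but at -0.15 per listed-gene read (adjusted p = 0.19).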

How the data were processed

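The deposited table gave 15542 genes in 20 libraries. FastQC, STAR 2.5.3a, Partek and the build UMD3.1 are named in the submitters' processing notes. No source used here states the counting rule or the gene model. The authors' deposited values are RPKM per kilobase of genomic span plus an offset of 0.01, a unit inferred from the values. The offset was subtracted, and 94.4 to 95.8% of values under 1000 reads fell within 0.1 of a whole read, which gave reads and library totals. Members with at least 10 reads in 2 libraries were tested with limma 3.58.1 (R 4.3.3, statmod 1.5.0, trend, robust) on log2(value + 1) over 10599 genes in all 20 samples, with a mean per group. The procedure was run on simulated reads with few changed genes and no shift in composition, which does not bear on the choice of scaling. Since the values were RPKM and not counts, count models planned for raw counts were not run. A fold of means is a ratio of mean RPKM. Alternatives were a pseudocount of 0.1, other filters, 3 scalings, fewer samples, a replicate block, voom on recovered reads and leaving out samples. The list of sequence-specific factors was drawn up as one without KRAB, but holds ZNF263, which has a KRAB domain. Members, lists and named genes were chosen with earlier results of these data known. Named were up to 8 called members a direction by size of change in both comparisons with fresh TE (mean of at least 50 reads in the higher group), up to 6 by p in the other comparisons, up to 8 by the worst adjusted p over 4 scalings in vitrified against fresh TE, the 5 members with the most reads in all and in each role list, the 3 on each side of the read filter, and 2 genes per partner list. Other members are named only to show where they stand. Protein and promoter sequences and domain classes were not analysed here.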

Additional observations from a re-analysis of the deposited data

Results flagged for a closer look

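The vitrification effect differed between whole embryos and TE (limma, test of the difference, whole embryo minus TE, adjusted p under 0.05) for the 12 members named in that comparison. On the log2(RPKM + 1) scale the difference was above 0 for ZNF521 (0.05), ZNF789 (0.29), ZNF570 (0.29), ZNF469 (0.15), ZNF174 (0.38) and ZNF283 (0.20). It was below 0 for ZNF106 (-0.79), ZNF513 (-1.13), ZNF593 (-1.65), ZNF706 (-1.55), ZNF502 (-0.24) and ZNF76 (-0.07). The fresh TE libraries enter each of these differences, and ZNF469, which passed the read filter through fresh TE alone, had to be higher there. As given above, the calls of ZNF570, ZNF174, ZNF283 and ZNF502 were lost under some alternatives.

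Single samples stood far from the others of their group for 2 of the 111 sets of 5 to 7 samples examined, and about 5% of such sets do so by chance. The 2 vitrified embryos were too few to be examined in this way. ZNF148 stood at 0.166 RPKM in vitrified TE 6, against 0.112 to 0.134 RPKM in the other vitrified TE samples. ZNF263 stood at 0.853 RPKM in fresh TE 4, against 0.611 to 0.675 RPKM in the other fresh TE samples.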

How the results depend on the processing

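Of 1828 alternative values for 82 named results, 1731 kept direction and call, 61 lost the call, 14 gained it and 22 reversed. 72 of the named results reversed under none of the alternatives run. In vitrified against fresh TE, higher members went from 86 to 47 with median-ratio scaling and 32 with quantile normalization. Lower members went from 3 to 20 per listed-gene read, 43 and 66 with these 2 scalings, 5 in a fit of the compared groups alone, and 3 to 5 with a sample left out. In fresh embryos against fresh TE, higher members went from 66 to 38, 29 and 18 and lower members from 4 to 21, 39 and 62 under the 3 scalings. In vitrified against fresh embryos, higher members went from 42 to 22 and 17 with median-ratio and quantile scaling and to between 20 and 48 with a sample left out (20 without vitrified embryo 2). Lower members went from 1 to 2 and 2, to 0 with voom, and to between 0 and 2. In vitrified embryos against vitrified TE, higher members went from 24 to 15 with a pseudocount of 0.1, 13, 5 and 4 under the 3 scalings, 12 in the compared groups alone, 13 with voom, and between 3 and 30 with a sample left out (3 without vitrified embryo 2). Lower members went from 3 to 1 with the pseudocount and 1 with quantile normalization, to 0 in the compared groups alone and with voom, and to between 0 and 5. With a vitrified embryo left out, the lone sample is assumed to vary like the other groups. In fresh embryos against vitrified TE, higher members went from 13 to 23 with quantile normalization. For the difference of effects, members above 0 went from 8 to 15, 24 and 39 under the 3 scalings and 5 with near-identical libraries averaged, and members below 0 from 16 to 9, 10 and 7, and to 34 with voom. The cause was not tested.

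Whether replicate numbers pair the samples was not settled. The correlation of deviations of equal numbers was -0.18 to 0.16 between fresh embryos and fresh TE and -0.16 to -0.0041 between fresh and vitrified TE. It was -0.14 to 0.38 between fresh embryos and vitrified TE, and 0.31 and -0.19 between vitrified embryos and vitrified TE. Of 5 fresh TE samples, 0 correlated best with the vitrified TE sample of their number. These values cannot decide it, since fresh TE held near-identical libraries. Moreover, the 2 vitrified embryos deviate from their mean in mirror image. With a replicate block, lower members in vitrified against fresh TE were 5, vitrified embryos against vitrified TE gave 8 higher and 0 lower, and the difference of effects was above 0 for 4. The other counts stayed within 1.5 times. With the replicate block ZNF335 passed between vitrified and fresh TE (0.20, adjusted p = 0.00611), ZNF622 did not (adjusted p = 0.0501), the difference of effects was lost for ZNF174 (adjusted p = 0.123) and ZNF283 (0.116), and the calls between vitrified embryos and vitrified TE were lost for ZNF32 (0.0503), ZNF76 (0.0709), ZNF513 (0.0879) and ZNF217 (0.146).

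Log2 fold changes between vitrified and fresh TE that reversed per listed-gene read, with median-ratio scaling and with quantile normalization were -0.19, -0.54 and -0.60 for ZNF622, -0.062, -0.18 and -0.26 for ZNF668, -0.18, -0.35 and -0.44 for ZNF410 and -0.045, -0.21 and -0.29 for ZNF335. With the last 2 scalings they were -0.056 and -0.15 for ZNF638, -0.021 and -0.078 for ZNF148 and -0.0037 and -0.030 for ZNF462, and with quantile normalization -0.035 for ZNF644 and -0.014 for ZNF608. ZNF511 in fresh embryos against fresh TE gave -0.086 and -0.16. In fresh TE, 64 of 151 members stayed under 10 reads in every library, and the part of depth in this was not tested.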
